A study of Mus musculus with 30 samples.

Results

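Neat1 and Malat1 are long noncoding RNAs that stay in the nucleus. They are 2 of the 17420 genes in the deposited expression table and were taken from it by name, with their values in all 30 libraries. The pair was chosen by the Neat1 signal of these same libraries, which was low in knockout against wild-type spinal cord of 1 genetic background, so that difference is described here and not tested. The study compared mice that lack acid alpha-glucosidase (Gaa), the lysosomal enzyme that degrades glycogen and is missing in Pompe disease, with wild-type mice. RNA came from the quadriceps and the spinal cord of the same 15 mice, all male and 4 months old, with 3 animals in each of 5 groups. These were Gaa WT and Gaa KO on B6;129, Gaa WT and Gaa KO on B6;129;DBA2/J (Ltbp4D36/D36), and treated Gaa KO on that second background, called the DBA mix here. All 3 DBA mix groups carry Ltbp4D36/D36. Treated mice had received, as newborns on postnatal day 1 to 2, an intravenous AAV9 vector with a human GAA gene driven by a liver-muscle promoter (LiMP), so the vector's promoter was not chosen for the cord. The 3 animals of a group are the replicates.

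Neat1 is the architectural RNA of the paraspeckle, a nuclear body in which the RNA holds together proteins such as Nono and Sfpq. Its short isoform ends at an ordinary polyadenylation site, whereas its long isoform runs past that site and is the one that builds the body. Malat1 lies beside Neat1 on the same strand and collects in nuclear speckles, which store splicing factors. Both Malat1 and the long isoform of Neat1 are cut by RNase P at a tRNA-like fold and have no ordinary poly(A) tail. An A-rich tract in the genome folds back on U-rich motifs as a triple helix and protects the new end.

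In GRCm38 (GENCODE vM21), Malat1 (ENSMUSG00000092341) lies at chr19:5795690-5802672 and Neat1 (ENSMUSG00000092274) at chr19:5824708-5845478, both on the minus strand and both annotated as lincRNA. The long transcript Neat1-201 is a single exon of 20771 bases. The short Neat1-202 has 3004 bases in 2 exons and shares its 5′ part with the long one. Malat1-201 has 6983 bases. Stretches at or near the 3′ ends of these transcripts are shown because the libraries were made from polyA RNA, and the ends set how each RNA can be captured. The Malat1-201 stretch closes with the A-rich tract, and 292 annotated bases follow it. In the first pair, capitals mark the U-rich motif TTTTGCTTTT and the A-rich tract that closes with its reverse complement, AAAAGCAAAA. In the third, capitals mark the polyadenylation signal AATAAA. All 3 are from the GENCODE vM21 transcripts, written with T for U.
Malat1-201, bases 6592 to 6691, chr19:5795982-5796081: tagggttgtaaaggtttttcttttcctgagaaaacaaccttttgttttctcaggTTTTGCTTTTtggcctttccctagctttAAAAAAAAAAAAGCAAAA
Neat1-201, bases 20672 to 20771, chr19:5824708-5824807: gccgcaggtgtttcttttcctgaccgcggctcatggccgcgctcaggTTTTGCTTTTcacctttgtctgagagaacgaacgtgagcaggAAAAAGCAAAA
Neat1-202, bases 2955 to 3004, chr19:5842307-5842356: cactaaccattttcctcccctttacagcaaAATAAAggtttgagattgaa
The tract has 18 bases with 16 A in Malat1 and 11 bases with 9 A in Neat1-201, and the longest run of A in the printed stretches is 12 in Malat1 and 5 in Neat1-201. On the transcript strand, AAAAGCAAAA is present in 1399 of 2333249 windows of 100 bases cut from all transcripts (0.05996%), and together with TTTTGCTTTT in 3 of them. A last stretch of under 100 bases was not counted in these windows. In the last 100 bases, AAAAGCAAAA is present for 154 of 139316 transcripts (0.1105%). AATAAA is in the last 50 bases of 37732 of 141672 transcripts (26.63%). Reads from the isoforms of Neat1 are summed in the table, so each value below is for the gene as a whole.

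Each library held between 1.69e+07 and 3.71e+07 reads. Gaa, the deleted gene, had a signal of 8.09 to 18.9 in the 18 KO libraries and 131 to 308 in the 12 WT libraries, so it is low in every library labelled KO. The human transgene is not a row of the table. Marker genes of the labelled tissues were where they should be: the 10 skeletal muscle fibre markers summed to at least 143523 in every quadriceps library, and the 10 oligodendrocyte markers to at least 15515 in every cord library. The column names of B6;129 and DBA mix libraries start with different series letters, so background and sample series cannot be told apart. Between these series the cord libraries also differed in mitochondrial reads, 6.99 to 7.7% in B6;129 against 13.2 to 17.1% in the DBA mix. The column names of the 3 treated cord libraries (numbers 21, 22 and 24) match their group but not single samples, and they are named by number here.

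Signal is the deposited value, reads divided by a scaled library size (a unit like CPM), and is not corrected for gene length. Neat1 reads numbered 16164 to 64694 per quadriceps library and 1187 to 19088 per cord library. Malat1 reads numbered 6662 to 16972 and 6148 to 21338, so counting error is small beside the spread between animals for both genes.

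In the quadriceps Neat1 signal was 1349.6, 1855 and 1389 in WT B6;129 and 1675, 2017 and 2127 in KO B6;129. In the DBA mix it was 1803, 1921 and 1575 in WT, 1771, 1994 and 2564 in untreated KO, and 1262, 1606 and 1048 in treated KO. The KO animals lay toward the top of the range and the treated animals toward its bottom, with the WT groups overlapping both KO groups. Ordered by mean, untreated KO of the DBA mix stood first with 2110 ± 409 (SD, n = 3), followed by KO B6;129 with 1940 ± 236, WT of the DBA mix with 1766 ± 176, WT B6;129 with 1531 ± 281 and treated KO with 1305 ± 282. Each of these groups overlapped the next in the order.

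In the cord Neat1 signal was 463, 381 and 329.5 in WT B6;129 and 387, 463 and 494 in KO B6;129. In the DBA mix it was 229.8, 250.3 and 191 in WT and 45.6, 35.7 and 50.7 in untreated KO. In treated KO it was 43.2 in library 21, 119 in library 22 and 178 in library 24. The untreated KO animals of the DBA mix were far below every WT animal of either background, and 1 treated animal lay among them while the other 2 lay between KO and WT. The order by mean was KO B6;129 with 448 ± 55.0 (SD, n = 3), WT B6;129 with 391 ± 67.1, WT of the DBA mix with 224 ± 29.9, treated KO with 113 ± 67.7 and untreated KO with 44.0 ± 7.65. The B6;129 groups overlapped each other, and so did treated and untreated KO. WT of the DBA mix overlapped neither the group above nor the group below it. The coefficient of variation was 59.7% in treated cord and between 9.95% and 21.6% in the other 9 groups.

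Malat1 spanned a narrower range of signal than Neat1 in both tissues. In the quadriceps, however, its log2 values varied more about their mean (root mean square 0.36 against 0.32 for Neat1). In the quadriceps its signal was 490.5, 792 and 734 in WT B6;129 and 437, 471 and 419 in KO B6;129. In the DBA mix it was 614, 718 and 899 in WT, 499, 686 and 647 in untreated KO, and 454, 432.5 and 439 in treated KO. The lowest values belonged to KO B6;129 and treated KO, whose 6 animals all lay below every other quadriceps library. By mean the order was WT of the DBA mix with 743 ± 144 (SD, n = 3), WT B6;129 with 672 ± 160, untreated KO of the DBA mix with 611 ± 98.6, KO B6;129 with 442 ± 26.2 and treated KO with 442 ± 11.0. The break between the third and the fourth of these was the only one without overlap.

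In the cord Malat1 signal was 236, 339 and 381 in WT B6;129 and 399, 440.5 and 323 in KO B6;129. In the DBA mix it was 281, 216 and 255 in WT, 296, 349 and 404 in untreated KO, and 235, 216 and 256 in treated KO. Untreated KO animals of the DBA mix were above all their WT and treated counterparts. Neat1 in the same animals lay on the opposite side of WT but overlapped the treated group. By mean KO B6;129 stood first with 387 ± 59.4 (SD, n = 3), then untreated KO of the DBA mix with 350 ± 53.9, WT B6;129 with 319 ± 74.7, WT of the DBA mix with 251 ± 32.9 and treated KO with 236 ± 19.7. All neighbours in this order overlapped.

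**Figure D1:**
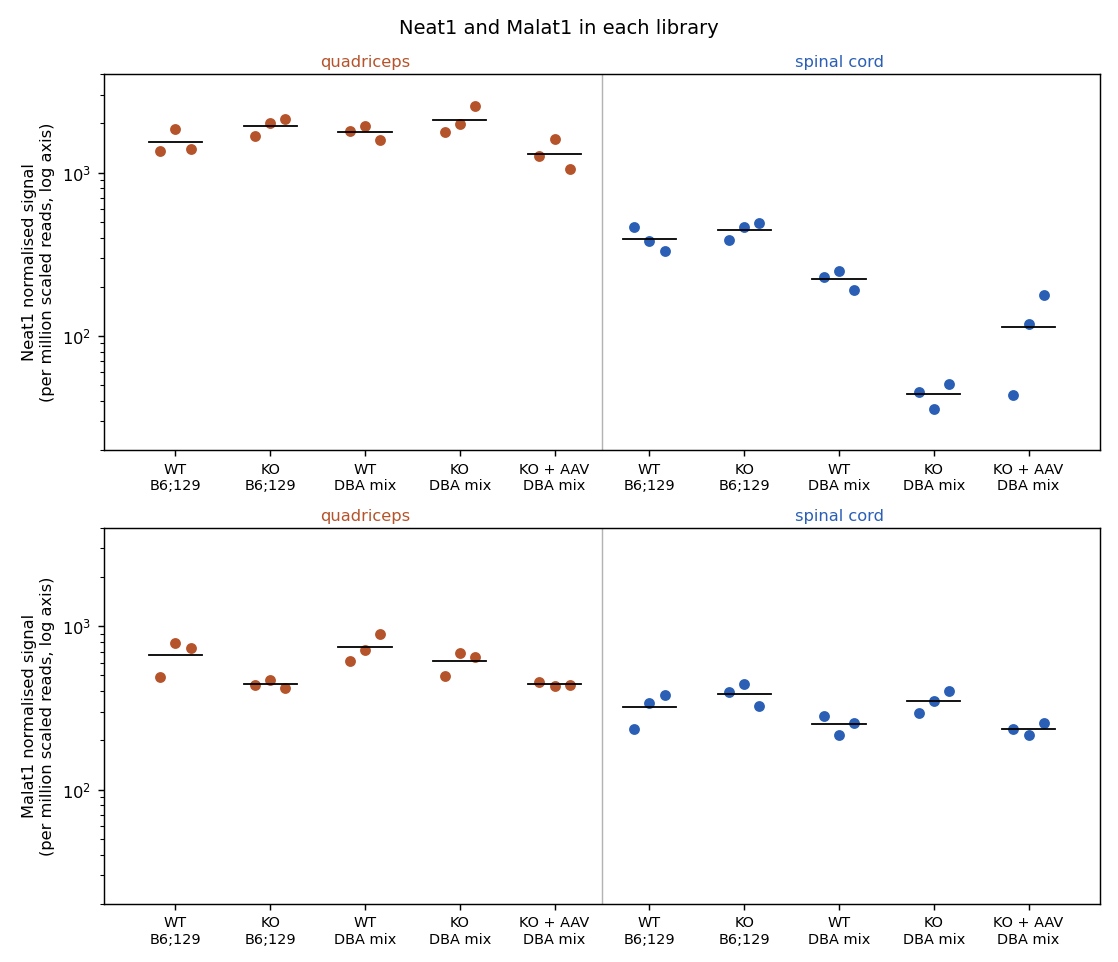
Normalised signal (log axis) of Neat1 (top) and Malat1 (bottom) in each of the 30 libraries, by tissue and group; points are animals and bars are group means (n = 3). Neat1 in cord of untreated KO mice of the DBA mix sits between 35.7 and 50.7, below the WT values of 191 to 250.3, and treated mice spread from 43.2 to 178.

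The fall that led to the choice of these genes was in the cord of the DBA mix. Neat1 was 2.34 ± 0.35 lower there in KO than in WT on the log2(signal + 0.5) scale (SE), a 5.06-fold difference. This is a description and carries no test. All 3 KO libraries lay below all 3 WT libraries, and such a lack of overlap, in either direction, was found for 29.2% of genes. Of the 15838 genes kept in the cord, 6 had a lower difference. They were Gaa itself (-3.47), the pseudogenes BC002163 (-6.51), Gm15920 (-4.83), Gm4204 (-3.48) and Glns-ps1 (-2.54), and Gm10600 (-2.43), named here after their values were seen. The highest WT signal among those other than Gaa was 59.4, far under that of Neat1. The same contrast in B6;129 cord gave Neat1 a difference of 0.20 ± 0.35, with overlapping libraries. The pair was picked for a fall in the DBA mix only, so this value was part of the choice as well and carries no test. In B6;129 cord 1.16% of all genes passed the threshold (adjusted p under 0.05).  The difference between the backgrounds in the KO effect was -2.54 ± 0.49, and WT of the DBA mix stood 0.80 ± 0.35 below WT B6;129, both without a test. Over all genes 0.524% passed the threshold for the first of these. For the second 66.8% passed and 71.6% had libraries without overlap, so the WT cords of these series differed widely; the share of those calls that were higher in the DBA mix went from 48.4% to 32.0% when scaled to non-mitochondrial totals.

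Treated KO cord was 1.15 ± 0.35 above untreated KO for Neat1 with overlapping libraries, and 1.19 ± 0.35 below WT with none. Libraries without overlap were found for 12.3% and 30.2% of all genes in these comparisons, and 16.8% passed the threshold between treated KO and WT. The difference from untreated KO moved between 0.71 and 1.73 as single libraries were left out, being highest without library 21. The difference from WT moved between -1.63 and -0.61, being nearest to 0 without library 21. These comparisons share animals with the choice and were not tested. Over all genes, limma called 0 genes between treated and untreated KO cord, edgeR called 2 and DESeq2 155, and 1697 genes had an unadjusted limma p under 0.05. Malat1 in the same comparisons was 0.48 ± 0.17 higher in KO than in WT and 0.56 ± 0.17 lower in treated than in untreated KO, both without overlap, and 0.08 ± 0.17 lower in treated KO than in WT. The choice rested on Neat1 alone, and in B6;129 cord Malat1 was tested. Its difference between KO and WT there was 0.30 ± 0.17 (limma adjusted p = 0.551, 95% interval -0.06 to 0.65) and did not pass the test. Fewer cells of a type and less RNA per cell cannot be told apart in these bulk samples.

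In the quadriceps Neat1 did not pass the test between KO and WT. Its difference between KO and WT was 0.35 ± 0.18 in B6;129 (limma adjusted p = 0.141) and 0.24 ± 0.18 in the DBA mix (limma adjusted p = 0.294), in contrasts where 35.8% and 39.4% of all genes passed the threshold. Under quantile normalization these became 0.59 and 0.55, and under scaling to non-mitochondrial totals 0.55 and 0.53, all past the threshold. The difference between backgrounds was -0.11 ± 0.25 (limma adjusted p = 0.919, 95% interval -0.64 to 0.43), in a test that 0.283% of genes passed. With treatment Neat1 fell by 0.70 ± 0.18 relative to untreated KO (limma adjusted p = 0.00631, 95% interval -1.08 to -0.32), and no treated animal reached an untreated one. In this contrast 40.6% of genes passed the threshold and 49.4% had libraries without overlap. Treated KO against WT gave -0.45 ± 0.18 (limma adjusted p = 0.154), with overlap. WT animals of the 2 backgrounds differed by 0.22 ± 0.18 (limma adjusted p = 0.566), where 2.57% of genes passed.

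Malat1 fell in the quadriceps of KO B6;129 mice by 0.57 ± 0.17 (limma adjusted p = 0.0188), with all 3 KO animals below all 3 WT animals, a lack of overlap seen for 53.9% of genes. Scaled to non-mitochondrial totals the difference was -0.37 (limma adjusted p = 0.0851), and without WT replicate 5, WT replicate 6 or KO replicate 3 it no longer passed either. The DBA mix gave -0.28 ± 0.17 between KO and WT (limma adjusted p = 0.217), and 0.01 under scaling to non-mitochondrial totals. The 2 backgrounds differed in this effect by 0.30 ± 0.24 (limma adjusted p = 0.710). Treated KO was below WT by 0.73 ± 0.17 (limma adjusted p = 0.0405) and below untreated KO by 0.45 ± 0.17 (limma adjusted p = 0.04996). Both comparisons were without overlap, but the calls were lost in 5 of 6 fits with 1 library left out. In the comparison with WT only 2.98% of genes passed the threshold, and 23.9% had libraries without overlap; 64.8% of the calls were higher in treated mice, against 48.6% when scaled to non-mitochondrial totals. The WT groups differed by 0.16 ± 0.17 (limma adjusted p = 0.679).

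**Figure D2:**
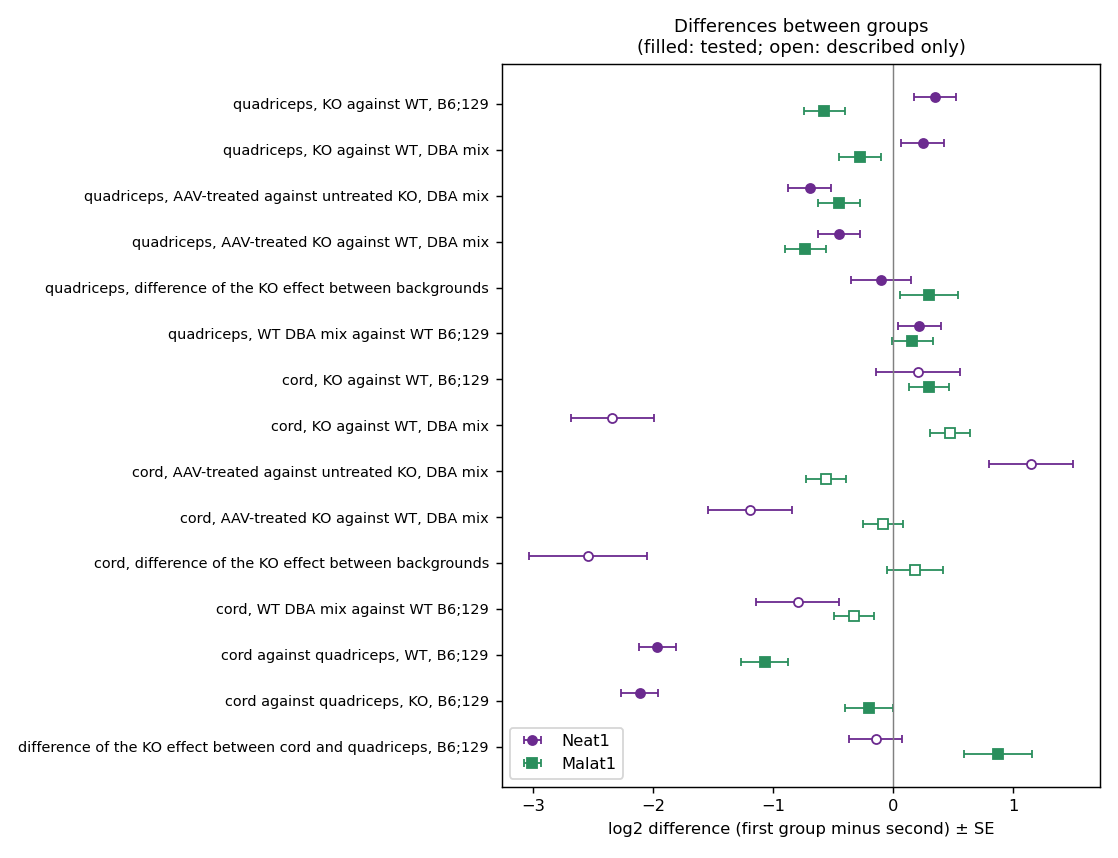
Differences of Neat1 (circles) and Malat1 (squares) between groups on the log2(signal + 0.5) scale, with standard errors. Open symbols mark comparisons tied to the choice of the genes, which were not tested. The Neat1 differences of cord against quadriceps are drawn filled but share cord libraries with the choice, so they carry no test. Neat1 in cord of the DBA mix stands at -2.34 beside 0.20 in B6;129 cord.

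Between tissues, compared in the B6;129 animals, Neat1 was lower in the cord by 1.97 ± 0.16 in WT and by 2.11 ± 0.16 in KO. It stayed lower under each scaling, by 0.55 to 2.11. The Neat1 values of these cord libraries were part of the choice, so this is a description and carries no test. In these contrasts 86.6% and 85.9% of genes passed the threshold, so a difference between tissues is the common case. The share of calls that were higher in cord was 51.7% and 51.6%, and 77.9% and 75.0% when scaled to non-mitochondrial totals. Malat1 was lower in WT cord by 1.07 ± 0.20 (limma adjusted p = 0.00026), but the sign reversed under quantile normalization, to 0.0504 higher, and under scaling to non-mitochondrial totals, to 0.0279 higher. In KO animals the Malat1 difference was -0.20 ± 0.20 (limma adjusted p = 0.354), and with the same settings it was 0.80 and 0.72, on the other side of 0. The KO effect on Malat1 differed between cord and quadriceps by 0.87 ± 0.28 (limma adjusted p = 0.0358), in a test that 29.3% of genes passed. That on Neat1 differed by -0.15 ± 0.22, without a test. The Malat1 value kept its sign in every alternative run and lost its call in both scalings named above. Scaling to non-mitochondrial totals moved the median difference of all genes between tissues by 1.01 in WT and 0.85 in KO. Relative to the median under that scaling, Malat1 was at -1.03 in WT cord and at -0.18 in KO cord. Under quantile normalization Malat1 was above the median of all genes, by 0.26 in WT and 0.99 in KO.

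The ratio of Neat1 to Malat1 signal compares the 2 RNAs within a library and does not depend on its scaling. It is not corrected for length, so it is read between groups only. In the quadriceps it was 1.89 to 2.75 in WT B6;129, 3.83 to 5.08 in KO B6;129, 1.75 to 2.94 in WT of the DBA mix, 2.91 to 3.96 in untreated KO and 2.38 to 3.71 in treated KO. KO B6;129 lay wholly above its WT group. In the DBA mix the highest WT library exceeded the lowest KO library. In the cord the ratio was 0.864 to 1.96 in WT B6;129, 0.971 to 1.53 in KO B6;129 and 0.75 to 1.16 in WT of the DBA mix. It was 0.102 to 0.154 in untreated KO of the DBA mix and 0.184, 0.549 and 0.698 in treated libraries 21, 22 and 24. Every treated library was thus above every untreated KO library and below every WT library in this ratio. For library 21 the Neat1 signal itself, 43.2, lay within the untreated KO range of 35.7 to 50.7. Its Malat1 signal, 235, lay below the 296 to 404 of untreated KO. The cord ratio contains the Neat1 values used for the choice, so it is a description and carries no test.

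**Figure D3:**
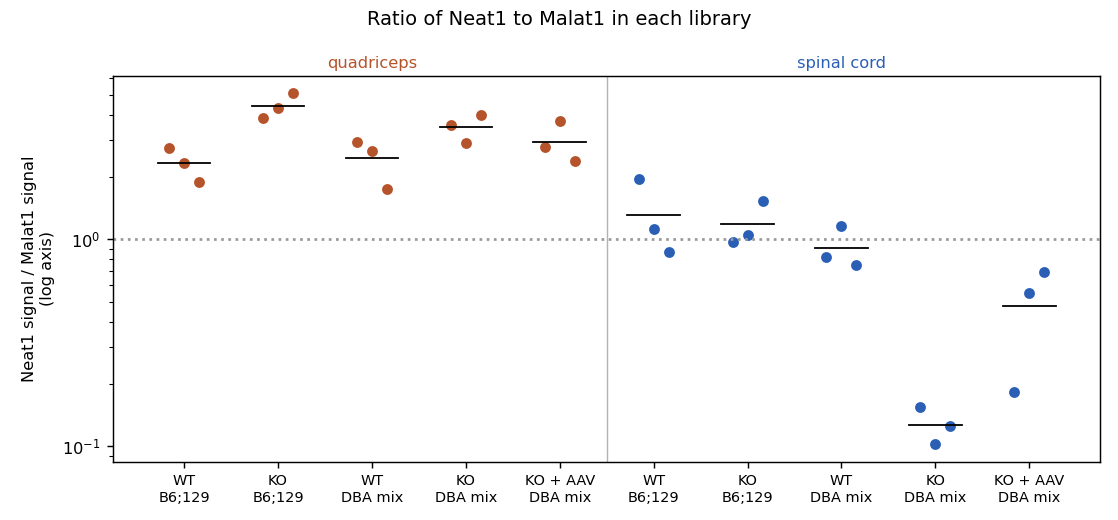
Ratio of Neat1 to Malat1 signal in each library (log axis, dotted line at 1), by tissue and group, with group means as bars (n = 3). The ratio is above 1 in all quadriceps libraries and drops to between 0.102 and 0.154 in cord of untreated KO mice of the DBA mix.

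The proteins that share a nuclear body with these RNAs were taken from lists of known components. Of 10 proteins needed to form paraspeckles (such as Nono, Sfpq and Rbm14), 0 passed the test in cord of the DBA mix between KO and WT, with differences from -0.09 to 0.09 and a median of -0.04. The median of all genes there was -0.01, and 13.0% of genes passed, 7.16% higher and 5.85% lower. Of 34 other paraspeckle proteins 4 were lower and 0 higher: Tcf20 (-0.29 ± 0.05), the splicing regulators Hnrnpa1 (-0.17 ± 0.04) and Hnrnph1 (-0.14 ± 0.04), and Aktip (-0.19 ± 0.05), with limma adjusted p from 0.00459 to 0.0492. In B6;129 cord 0 of 10 and 0 of 34 passed. Of 33 nuclear speckle proteins 5 were higher in KO cord of the DBA mix, among them the kinases of splicing factors Clk4 (58.8 ± 1.82 against 43.6 ± 3.71 signal, SD, n = 3, 0.43 ± 0.08 on the log2 scale) and Clk1 (0.40 ± 0.10), and the scaffold Srrm2 (0.23 ± 0.06). In B6;129 cord 0 of 33 passed.

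Calls in the quadriceps are read against those over all genes: 16.7% of all genes were higher and 19.04% lower in KO B6;129, 17.1% higher and 22.3% lower in KO of the DBA mix, and 23.6% higher and 17.1% lower with treatment. Of the 10 proteins needed for paraspeckles, 2 rose and 1 fell in KO B6;129, namely the chromatin remodellers Smarca4 (0.26 ± 0.06) and Smarcb1 (0.44 ± 0.11) and the RNA-binding protein Hnrnph3 (-0.24 ± 0.09). In KO of the DBA mix Nono (0.34 ± 0.07) and Hnrnpk (0.17 ± 0.06) rose and 0 fell. With treatment Smarca4 and Dazap1 were among those that rose, and Nono fell (69.3 ± 3.24 against 83.4 ± 1.59 signal, SD, n = 3). Of 33 other paraspeckle proteins 1 rose and 6 fell in KO B6;129, 0 rose and 6 fell in KO of the DBA mix, and 9 rose and 2 fell with treatment. The transcriptional repressor Bcl6 fell from 134 ± 23.8 to 72.8 ± 13.4 signal (SD, n = 3) in KO B6;129, a difference of -0.88 ± 0.22. In the DBA mix it was 80.9 ± 5.18 in WT, 47.4 ± 13.8 in untreated KO and 143 ± 32.6 in treated KO, a rise of 1.6 ± 0.22 with treatment (limma adjusted p = 7.25e-05). Ahdc1 fell by 0.81 ± 0.18 in KO of the DBA mix and rose by 0.98 ± 0.18 with treatment. Across these lists the share of higher and lower calls followed the scaling. Scaled to non-mitochondrial totals the other paraspeckle proteins had 8 higher and 3 lower, 12 higher and 1 lower, and 2 higher and 13 lower, while Bcl6 and Ahdc1 kept their sign. Of 33 nuclear speckle proteins 8 fell and 0 rose in KO B6;129, 13 fell and 0 rose in KO of the DBA mix, and 14 rose and 3 fell with treatment, but scaled to non-mitochondrial totals 10 rose and 2 fell, 6 rose and 7 fell, and 4 rose and 12 fell. That scaling moved the median difference of all genes by 0.19, 0.27 and -0.29 in the 3 contrasts, and the share of calls that were higher from 46.7% to 75.4%, from 43.4% to 79.6% and from 58.0% to 21.6%. Prpf8 and Son, a core splicing protein and a speckle scaffold, kept their sign in every scaling: Son was -0.35 ± 0.06 and -0.52 ± 0.06 in the 2 KO contrasts and 0.48 ± 0.06 with treatment.

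Genes for the 3′ ends and stability of these RNAs include the RNase P subunits and the exosome with its helicase. Of 19 kept in the cord, 2 were lower in KO of the DBA mix (10.5%, where 5.85% of all genes were lower). They were Skiv2l2, a helicase of the nuclear exosome (-0.20 ± 0.06, limma adjusted p = 0.0472), and the RNase P subunit Pop5 (-0.30 ± 0.09, limma adjusted p = 0.0499). In B6;129 cord 0 of 19 passed. Of 18 in the quadriceps, 4 fell in KO B6;129 (22.2%, where 19.04% of all genes fell), those with the smallest adjusted p including Skiv2l2 (40.5 ± 0.85 against 60.9 ± 2.67 signal, SD, n = 3, -0.58 ± 0.08) and the RNase P subunit Rpp14 (-0.48 ± 0.07). In KO of the DBA mix 4 fell and 1 rose, and with treatment 7 rose and 0 fell. Scaled to non-mitochondrial totals the 3 counts were 2 lower and 0 higher, 1 lower and 6 higher, and 5 lower and 1 higher.

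Among 24 other long noncoding RNAs kept in the cord, 6 were higher (25%) and 2 lower (8.33%) in KO of the DBA mix. Over all genes the shares were 7.16% and 5.85%. The imprinted Kcnq1ot1 was 0.85 ± 0.12 higher (limma adjusted p = 0.000973), the neuronal nuclear RNA Miat 0.47 ± 0.09 (limma adjusted p = 0.00526), Mirg 0.55 ± 0.11 (limma adjusted p = 0.00542) and the miR-124 host Mir124a-1hg 0.40 ± 0.08 (limma adjusted p = 0.00715). For Miat and Mir124a-1hg the difference between backgrounds passed as well, at 0.63 ± 0.13 and 0.57 ± 0.12 (limma adjusted p = 0.0444 and 0.044). In B6;129 cord, where 1.16% of all genes passed, 1 of 24 did, the imprinted Peg13 (-0.25 ± 0.05). In the quadriceps H19, an imprinted RNA of growing and regenerating muscle, rose from 775 ± 248 to 3149.6 ± 358 (SD, n = 3) in KO B6;129 and from 586 ± 130 to 2684 ± 535 in KO of the DBA mix, and fell to 602 ± 187 with treatment. Tug1, a mainly nuclear RNA, moved the other way by -0.43 ± 0.08, -0.35 ± 0.08 and 0.32 ± 0.08. In all, of 21 such RNAs in the quadriceps 2 rose and 5 fell in KO B6;129, 2 rose and 4 fell in KO of the DBA mix, and 5 rose and 2 fell with treatment, where 35.8%, 39.4% and 40.6% of all genes passed in either direction. Scaled to non-mitochondrial totals these became 5 and 2, 4 and 2, and 3 and 6, but H19 and Tug1 did not change sign.

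**Figure D4:**
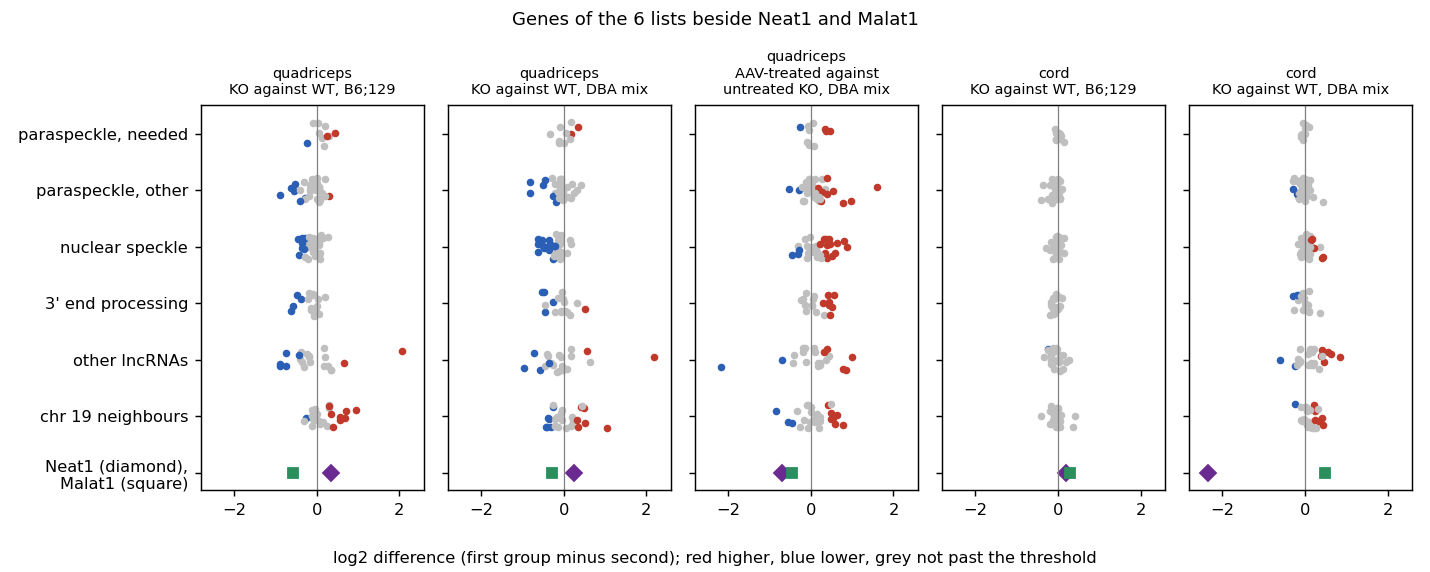
Log2 difference of each kept gene of 6 lists in 5 contrasts, red where higher and blue where lower at an adjusted p under 0.05, with Neat1 (diamond) and Malat1 (square) on the bottom row. In cord of the DBA mix Neat1 at -2.34 lies outside the range of every list, and the 10 proteins needed for paraspeckles lie between -0.09 and 0.09.

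The cord fall was not seen in the neighbouring gene Frmd8. It is the nearest protein-coding gene on the 5′ side of Neat1 and was 67.8 ± 0.653 in untreated KO and 57.1 ± 1.05 in WT cord of the DBA mix (SD, n = 3), a rise of 0.25 ± 0.07 (limma adjusted p = 0.0425). Of 27 genes from the region around Neat1 and Malat1, 7 were higher (25.9%) and 1 lower (3.70%) in that contrast. Over all genes 7.16% were higher and 5.85% lower there, and 0 of 27 passed in B6;129. In the quadriceps Frmd8 rose by 0.57 ± 0.14 in KO B6;129 and by 0.48 ± 0.14 in KO of the DBA mix, and fell by 0.46 ± 0.14 with treatment (limma adjusted p = 0.00713, 0.0167 and 0.0192).

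Short annotated genes overlap both RNAs, and reads shared with them could be counted to either. The kit is not stated to keep strand, so reads of Gm37376, which lies inside Malat1 on the opposite strand (chr19:5801941-5802393), cannot be told apart from Malat1 reads. Its signal was 6.49 to 13.4 in the 6 untreated B6;129 cord libraries and 26.8 to 54.5 in the 9 of the DBA mix. WT cord of the DBA mix was 2.06 ± 0.20 above WT B6;129 (limma adjusted p = 3.4e-07), while Malat1 there was 0.33 ± 0.17 lower, with values of -0.61 under quantile normalization and -0.55 under scaling to non-mitochondrial totals. In the quadriceps Gm37376 was 1.14 ± 0.31 higher in KO than in WT of the DBA mix and 1.56 ± 0.31 lower with treatment (limma adjusted p = 0.0109 and 0.00138), where Malat1 values were -0.28 and -0.45. Inside the 5′ part common to both Neat1 isoforms lies Gm28006, with 0.906 to 2.37 in the quadriceps, 0.366 to 0.927 in B6;129 cord and at most 0.130 in the cord of the DBA mix, a level of at most 4 reads per library and too few to compare there.

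Markers of other cells moved in the same contrasts, and their part in the Neat1 and Malat1 values was not tested. In KO cord 7.16% of all genes were higher and 5.85% lower in the DBA mix, and 0.998% and 0.158% in B6;129. For the quadriceps these shares were 16.7% and 19.04% in KO B6;129, and 17.1% and 22.3% in KO of the DBA mix. With treatment 23.6% of all quadriceps genes were higher and 17.1% lower. In cord of the DBA mix 10 of 10 microglia markers were higher in KO, their summed signal being 418 to 458 against 225 to 242 in WT and 307 to 420 in treated KO, and 6 of 10 macrophage markers were higher. In B6;129 cord 7 of 10 microglia markers were higher in KO, with sums of 373 to 404 against 211 to 219. Neuron markers summed to 6250.5 to 6752 in KO and 6475 to 7671 in WT of the DBA mix, with 3 of 11 lower. Endothelial markers had 5 of 10 higher, with sums of 135 to 150.4 against 100.05 to 105 in WT, and 0 of 10 in B6;129. Astrocyte markers had 2 of 10 higher in each background, with sums of 6998 to 7320.2 against 4846 to 5400.1 in the DBA mix and 5116 to 5599 against 3903 to 4264 in B6;129. Oligodendrocyte markers had 3 of 10 higher, at 33161 to 34994 against 25920 to 35166. Schwann cell and blood markers had 0 called, although the blood sum was 188 to 955 in KO against 107 to 202 in WT. Fibroblast and skeletal muscle fibre markers had 0 called as well. The fibroblast sum was 95.5 to 154 in KO against 70.6 to 212 in WT. The fibre sum varied widely within groups, at 44.6 to 300 in KO, 34.8 to 1585 in WT and 54.6 to 1268 in treated KO. None of the cord marker genes was at or near 0 in all libraries. In the quadriceps macrophage markers rose in KO, 9 of 10 in B6;129 (291 to 353 against 62.2 to 89.7) and 8 of 10 in the DBA mix (237 to 490.3 against 110 to 145), and 7 of 10 fell with treatment to 79.5 to 193. Endothelial markers went the other way, 8 of 10 lower in KO B6;129 (288 to 311 against 441 to 546), 6 of 10 lower in KO of the DBA mix (223 to 302 against 373 to 458) and 7 of 10 higher with treatment (415 to 612). Fibroblast markers were higher for 6 of 10 in KO B6;129 (1346 to 1523 against 573 to 879) and for 4 of 10 in KO of the DBA mix (1023 to 1963 against 850.4 to 992), and 1 of 10 was lower with treatment (966 to 1465). Fibre markers were lower for 4 of 10 in each KO contrast and higher for 5 of 10 with treatment.

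The genes with cord profiles most like that of Neat1 were found by the root mean square distance between log2 profiles, each centred on its mean, over the 15 cord libraries and 15837 other genes. The 5 closest were Gm2163 (0.56), Fam205a1 (0.60), Fggy, a carbohydrate kinase (0.64), and Gm10593 and Gm3892 (0.67 each), against 1.33 for a flat profile. All 5 lie on chromosome 4, and 4 of them between 42055152 and 42853888 in GRCm38. Gm10593 and Gm3892 have the same values in every library, so they count as 1 measurement and may share reads, and Gm2163 overlaps Gm10593. Their levels are low. Gm2163 was 2.23 to 4.31 in the 6 B6;129 libraries, 0.995 to 1.78 in WT and 0.0173 to 0.276 in untreated KO of the DBA mix, the lowest of these standing for 0 reads. Fggy was 7.79 to 9.19 in B6;129, 5.08 to 5.69 in WT, 0.165 to 2.10 in untreated KO and 0.474 to 3.53 in treated KO of the DBA mix. Under quantile normalization 2 of the 5 remained among the closest. Gm10600, among the 6 genes with a lower difference than Neat1, lies at chr4:42240639-42242685 in the same stretch.

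**Figure D5:**
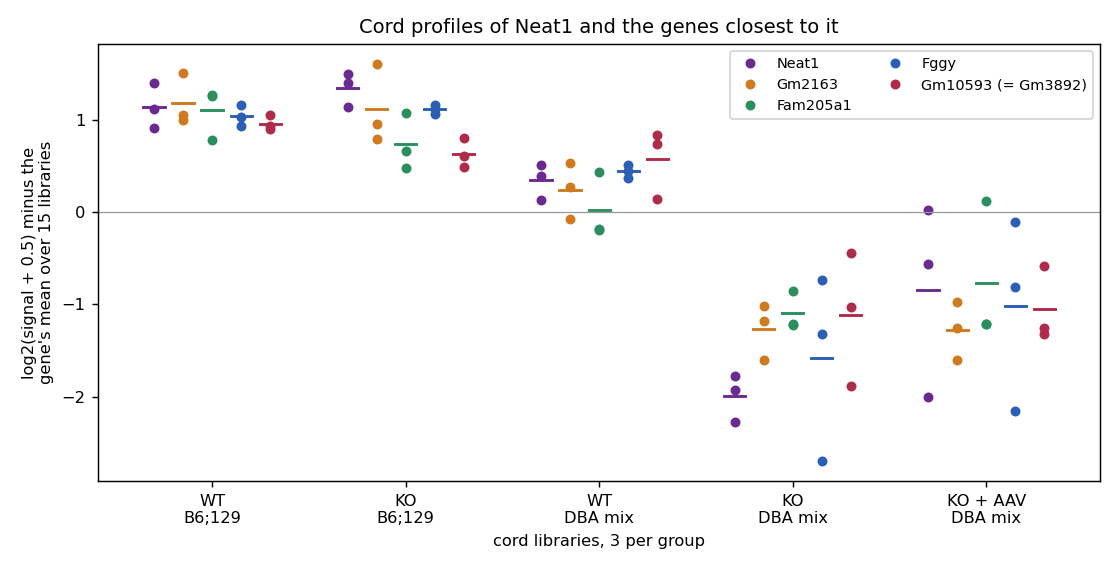
Centred log2(signal + 0.5) of Neat1 and the genes with the closest cord profiles, 3 libraries per group as points with group means as bars. Gm10593 stands for Gm3892 as well. By group mean all are high in both B6;129 groups, lower in WT of the DBA mix and lowest in its KO groups, and the treated animals of Neat1 and Fggy are spread widely.

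In the quadriceps the closest to Neat1 were Rpgr (0.15), Sdhaf4 (0.16), Lsm3 (0.16), Ubl5 (0.18) and Snrnp25 (0.18), against 0.32 for a flat profile, and 0 of them stayed closest under quantile normalization. Closest to Malat1 in the quadriceps were Gm3244 (0.18), Acot13 (0.18), Ndufs4, a subunit of respiratory complex I (0.19), Gm10053 (0.20) and Coq3 (0.20), against 0.36. In the cord they were Plk1 (0.17), Pcdhb15 (0.19), Csf2rb2 (0.20), Nfkbid (0.20) and Csf2ra (0.20), against 0.33. Under quantile normalization 2 of the 5 in the quadriceps and 0 of the 5 in the cord remained among the closest to Malat1. Neat1 and Malat1 were not close to each other. Malat1 stood at rank 6309 among the genes ordered by distance from Neat1 in the quadriceps and at rank 7495 in the cord.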

How the data were processed

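Per the labels' protocols, polyA RNA of snap-frozen tissue was made into libraries with the NEBNext Ultra RNA kit and sequenced as single reads of 61 bases. The submitters' processing notes name cutadapt, RSEM, limma, edgeR and GRCm38, with no versions. The authors deposited 1 signal value per gene and library, (reads + 0.5) over a scaled library size, a unit like CPM. Whole reads came back from 100% of values (tolerance 0.001) and gave the depths.

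The members and the gene lists were chosen with earlier results of these data known. Within each tissue limma 3.58.1 (R 4.3.3, trend) was fitted to log2(signal + 0.5) with 5 groups, over genes that reached a signal of 1 in 3 or more libraries (14113 in quadriceps, 15838 in cord), and adjusted over all of them (Benjamini-Hochberg, threshold 0.05). The tissue comparison used the 12 B6;129 libraries and 16176 genes. Alternatives were another pseudocount, filters, scalings, edgeR 4.0.16 and DESeq2 1.42.0 on the recovered reads, only the groups compared, and each library left out. Scaling to non-mitochondrial totals sets each library's signal outside mitochondrial genes to 1 total. Neat1 in B6;129 cord, its difference between tissues and its KO effect between tissues were planned as tests. They are described only, since the choice used these cord libraries. The scripts' calls were tested on simulated data. Of the table's 17420 gene IDs, 17388 were in GENCODE vM21. In each list and contrast, up to 4 called genes with the smallest adjusted p are named, and some genes are not reported here.

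The 2 tissues of an animal pair: in 12 of 12 untreated animals, deviations from the group mean correlated best with the other tissue of the same animal (0.109 to 0.354 over 13187 genes). Replicates of every group differed beyond counting noise.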

Additional observations from a re-analysis of the deposited data

Results flagged for a closer look

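The KO effect on Malat1 differed between cord and quadriceps of the B6;129 animals by 0.87 ± 0.28 on the log2 scale (limma, adjusted p = 0.0358), as the test of the difference itself shows. Malat1 was 0.57 lower in KO than in WT quadriceps and 0.30 higher in KO than in WT cord, the second value not past the threshold. Of all genes tested, 29.3% passed the same test. The call was lost without any 1 of 8 of the 12 libraries.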

How the results depend on the processing

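Several results moved under quantile normalization and under scaling to non-mitochondrial totals. The Neat1 difference between KO and WT quadriceps then passed the threshold, at 0.59 and 0.55 in B6;129 and 0.55 and 0.53 in the DBA mix. For Malat1 the second scaling gave -0.37 in KO B6;129 quadriceps, no longer past the threshold, and 0.0056 in the DBA mix, with the sign reversed. Malat1 in cord against quadriceps reversed under both, to 0.0504 and 0.0279 in WT and 0.80 and 0.72 in KO, and the difference of its KO effect between tissues lost its call at 0.75 and 0.69. Quantile normalization moved Neat1 in WT cord of the DBA mix against WT B6;129 to -1.09. Malat1 in treated against untreated KO quadriceps lost its call with pseudocount 2 (-0.45, adjusted p = 0.05004) and with no filter (-0.45, adjusted p = 0.067), and against WT with no filter (-0.73, adjusted p = 0.0551) or only the groups compared (-0.73, adjusted p = 0.162). With 1 library left out, Malat1 ranged from -0.79 to -0.44 in KO B6;129 quadriceps, from -0.59 to -0.36 in treated against untreated KO, from -0.86 to -0.59 in treated KO against WT, from -0.054 to 0.29 between the WT groups (reversed without WT B6;129 replicate 4) and from 0.67 to 1.08 in the difference of its KO effect between tissues. The difference of the Neat1 KO effect between backgrounds in quadriceps ranged from -0.25 to 0.0119, reversed without KO replicate 6 of the DBA mix. The cause of these changes was not tested. With the animal as a replicate block, the tissue comparisons kept their values, and those tested their side of the threshold: Neat1 -1.97 and -2.11, Malat1 -1.07 and -0.20, and differences of the KO effect of -0.15 and 0.87. Counts of called genes moved by over 1.5 times in 8 contrasts. With DESeq2 the 40 calls of the quadriceps difference between backgrounds became 205 (edgeR 10, and 11 to 116 with 1 library left out), the 421 of treated KO against WT quadriceps 1023, the 363 between WT quadriceps 790, the 183 of KO B6;129 cord 388, the 0 of treated against untreated KO cord 155 and the 83 of the cord difference between backgrounds 280. Fitting only the groups compared gave 17, 156 and 297 in the second to the fourth of these, and 570 in place of 2061 and 531 in place of 2654 for KO and treated KO against WT cord of the DBA mix; without WT replicate 4 these were 918 and 1462. With 1 library left out, the treated cord contrast gave up to 35 calls, and 3 and 4 with pseudocount 2 and a filter at a signal of 4.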
